A study of Mus musculus with 6 samples.

Results

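The 9 genes described are those of the SMC family in the mouse (Smc1a, Smc1b, Smc2, Smc3, Smc4, Smc5, Smc6 and the non-canonical member Smchd1) together with Lrif1, whose product binds SMCHD1. They were chosen by name from 35506 genes in an RNA-seq table, and 8 of the 9 had enough reads to be tested, among 14134 tested genes. RNA was taken from the tailbud, the posterior end of the embryo that holds the presomitic mesoderm from which somites form, at 8 somites. The control group (WT) was 3 Smchd1+/+ embryos and the mutant group was 3 Smchd1 MommeD43/MommeD43 embryos, homozygous for a missense allele that arose in a chemical (ENU) mutagenesis screen. All 6 embryos were FVB/NJ and none had received a treatment. Each library came from a separate embryo, and replicate 1 of each group was male while replicates 2 and 3 were female. The males shared a mother, whereas the 4 females came from 4 others. Other variants linked to Smchd1 travel with the ENU allele, so they and the missense change cannot be told apart here.

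SMC proteins are long coiled-coil ATPases that work as heterodimers and fold, hold together or repair DNA. SMC1A pairs with SMC3 in cohesin, which holds sister chromatids and extrudes chromatin loops, SMC2 pairs with SMC4 in condensin, which compacts mitotic chromosomes, and SMC5 pairs with SMC6 in a complex of DNA repair. SMCHD1 shares the hinge domain of the family but carries a GHKL-type ATPase, forms homodimers and silences the inactive X chromosome and clustered autosomal genes.

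The allele that defines the groups changes 1 base of Smchd1 (ENSMUSG00000024054, chromosome 17, 71344489 to 71475343, minus strand, GRCm38). The base lies at 71427500, in exon 15 of 48. The change is C2000A, counted from 1 at the first base of the start codon of the reference transcript, and it turns an alanine codon into one for glutamate. The 51 bases around it (chr17:71427475-71427525, minus strand) are shown because this codon defines the mutant allele, and capitals mark the codon.
Smchd1 WT: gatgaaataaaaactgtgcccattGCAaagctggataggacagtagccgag
Smchd1 MommeD43: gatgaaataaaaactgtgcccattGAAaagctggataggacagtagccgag
The table holds expression values and no variant calls, so the genotype of the libraries was not checked at this base.

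The libraries ranged from 10957916 to 47298348 reads, and the shallowest was MommeD43 replicate 1. All 11 markers of tailbud and presomitic mesoderm were detected, with a summed level of 584 to 815 RPKM in WT and 595 to 705 RPKM in MommeD43 (RPKM is the read number divided by exon length and by library size). The 4 neural tube markers summed to less than 1 RPKM in every library (0.571 to 0.894), whereas one label field names neural stem cells and the tissue and title fields name tailbud. Markers of visceral endoderm and yolk sac varied widely, from 136 to 277 RPKM in WT and 37.2 to 431 RPKM in MommeD43, and those of red blood cells from 5.56 to 470 and from 13.5 to 209 RPKM. In tissue samples, fewer cells of a type and less RNA per cell cannot be told apart.

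The first question was whether MommeD43 altered the RNA of its own gene. Smchd1 was at 7.31, 8.58 and 8.31 RPKM in WT replicates 1 to 3. In MommeD43 replicates 1 to 3 it was at 7.94, 7.66 and 7.15 RPKM. The groups overlapped, with the WT male below 2 of the mutant embryos. The mean level was 8.07 ± 0.672 RPKM in WT and 7.58 ± 0.40 RPKM in MommeD43 (SD, n = 3 each). On the log2 scale the difference was -0.09 with a 95% interval from -0.29 to 0.12 (limma, Benjamini-Hochberg adjusted p = 0.999). On the linear scale the interval ran from 0.818-fold to 1.08-fold.

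Lrif1 encodes a nuclear protein that binds SMCHD1 and the HP1 proteins, which recognize methylated lysine on histone H3. The gene (ENSMUSG00000056260) lies on chromosome 3 from 106684987 to 106736577, plus strand. Its level was 1.65, 2.03 and 1.77 RPKM in WT replicates 1 to 3, from 554, 440 and 270 reads. It was 1.39, 1.30 and 1.63 RPKM in MommeD43 replicates 1 to 3, from 140, 567 and 196 reads. Every mutant library was below every WT library, but the gap between the nearest libraries, 1.65 and 1.63 RPKM, was smaller than their counting error (exact 95% intervals 1.51 to 1.79 and 1.41 to 1.87 RPKM). Lrif1 was the only member of the 8 tested whose groups did not overlap. Among all autosomal genes tested, 7.08% had groups without overlap, and 3.55% had all mutant libraries lower.

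The mean level of Lrif1 was 1.81 ± 0.194 RPKM in WT and 1.44 ± 0.168 RPKM in MommeD43 (SD, n = 3 each). This is a log2 fold change of -0.33 with an SE of 0.16 and a 95% interval from -0.70 to 0.03, or 0.794-fold (0.617-fold to 1.02-fold). It did not pass the test over all autosomal genes (limma, unadjusted p = 0.0691, adjusted p = 0.999). The difference was -0.24 in males and -0.38 in females. As the groups did not overlap, both had to be negative, so the shared sign adds no support. The shorter gene Gm38253 shares 11.58% of the exon length of Lrif1 on the same strand, and reads in that stretch cannot be assigned to one of them. With all reads of Gm38253 taken off, the level of Lrif1 was 1.64, 1.91 and 1.64 RPKM in WT and 1.33, 1.25 and 1.5 RPKM in MommeD43. The log2 difference of the means was then -0.35, and the groups still did not overlap.

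The cohesin pair was abundant and steady. Smc1a is X-linked (chromosome X, 152016428 to 152062694, plus strand) and was at 49.1, 46.2 and 46.9 RPKM in WT replicates 1 to 3. In MommeD43 replicates 1 to 3 it was at 47.3, 46.8 and 50.6 RPKM. The lowest and highest of the 6 values differed by a factor of 1.10, and the groups overlapped. With sex in the model its log2 fold change was 0.02 (95% interval -0.11 to 0.15, limma, adjusted p = 0.997). In that model 0% of all genes outside the Y chromosome passed, with 2.88% at an unadjusted p under 0.05. The 2 males and 4 females also overlapped in Smc1a level, and the female minus male log2 difference was -0.02 ± 0.06 (SE, limma, adjusted p = 0.941), where the median over 506 X-linked genes was 0.02. For sex, 0.00708% of all genes passed and 8.20% had an unadjusted p under 0.05, and Smc1a was in neither share. As both males had 1 mother and the females had others, sex and mother cannot be told apart in this value. Smc3, on chromosome 19 from 53600398 to 53645833, was at 46.3, 50.1 and 48.0 RPKM in WT and at 51.5, 48.3 and 45.8 RPKM in MommeD43. Its log2 fold change was 0.01 (95% interval -0.13 to 0.15, limma, adjusted p = 0.999).

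Smc1b encodes the form of SMC1 that replaces SMC1A in meiotic cohesin of germ cells. Only 10 reads fell on it in all 6 libraries together (5, 0 and 2 in WT replicates 1 to 3, and 1, 2 and 0 in MommeD43 replicates 1 to 3). The 2 libraries without a read allow a level of up to 0.0314 RPKM in WT replicate 2 and 0.0566 RPKM in MommeD43 replicate 3 (3 reads). Pooled over the libraries its level was 0.0167 RPKM (exact 95% interval 0.00800 to 0.0307, counting error only). Smc1a stood 2858-fold above it (95% counting interval 1554 to 5960). Smc1b missed the filter on low reads, so it was described and not tested. Other meiotic cohesin genes differed in detection: Rad21l had at most 1 read in any library, while Stag3 (0.93 RPKM) and Rec8 (0.47 RPKM) passed the filter. These 3 genes were named here after their values were seen. Of 6 germ cell markers, 3 passed the filter. The groups did not overlap in the summed level of all 6, a difference that was not tested. Among single autosomal genes tested, 7.08% had groups without overlap. The sum was 3.96 to 5.03 RPKM in WT and 5.13 to 6.85 RPKM in MommeD43. Most of it came from Dppa3, which also marks early embryonic cells. Dppa3 was at 3.4, 4.32 and 3.24 RPKM in WT and at 4.6, 5.88 and 6.6 RPKM in MommeD43. For each of the other germ cell markers the groups overlapped, so the higher sum was not shared by the meiotic markers. The part of germ cells in the reads of Smc1b was not tested.

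The promoters of these SMC1 paralogs are printed because one gene was abundant in every library and the other hardly detected. Each window is 300 bases in GRCm38.p6 from RefSeq, 250 before and 50 after the start of transcription, read along the strand of the gene, and 8 of the 9 members had such a window. Capitals mark matches to GCGGGAA or its complement TTCCCGC, a form of the E2F motif, searched on both strands.
Smc1a (chrX:152016178-152016477, plus strand): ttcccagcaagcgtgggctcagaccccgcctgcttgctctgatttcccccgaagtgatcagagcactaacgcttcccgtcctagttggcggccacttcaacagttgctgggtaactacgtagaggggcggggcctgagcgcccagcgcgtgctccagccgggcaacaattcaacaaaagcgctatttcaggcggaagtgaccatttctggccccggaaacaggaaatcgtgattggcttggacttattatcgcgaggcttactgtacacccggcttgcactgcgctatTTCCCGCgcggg
Smc1b (chr15:85131908-85132207, minus strand): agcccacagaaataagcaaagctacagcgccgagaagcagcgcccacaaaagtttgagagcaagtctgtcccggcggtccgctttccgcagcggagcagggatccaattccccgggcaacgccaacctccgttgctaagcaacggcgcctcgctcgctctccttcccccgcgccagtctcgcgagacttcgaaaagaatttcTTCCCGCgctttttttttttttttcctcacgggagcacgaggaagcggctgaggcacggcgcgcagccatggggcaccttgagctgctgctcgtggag
Each window held 1 match, starting 39 bases into the transcript of Smc1a and 48 bases before the start of Smc1b. Of 32851 promoters of that length, 4.6% held a match. Smc1a had 23 CpG and 58.3% GC in its window, and Smc1b had 29 CpG and 60.0% GC. The match is a description of the letters and was not set against any binding.

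The condensin pair differed in level. Smc4 (chromosome 3, 69004738 to 69034623) was the most abundant member, at 64.6, 73.0 and 72.0 RPKM in WT replicates 1 to 3. In MommeD43 replicates 1 to 3 it was at 68.6, 66.3 and 65.8 RPKM, and the WT male was the lowest of the 6 libraries. Its log2 fold change was -0.06 (95% interval -0.20 to 0.08, limma, adjusted p = 0.999). Smc2, on chromosome 4 from 52439243 to 52488260, was at 46.3, 48.9 and 46.7 RPKM in WT and at 45.9, 47.1 and 48.0 RPKM in MommeD43. Its log2 fold change was -0.01 (95% interval -0.12 to 0.10, limma, adjusted p = 0.999). For each of these genes the groups overlapped.

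Smc5 and Smc6, of the DNA repair complex, were below the tested SMC genes of cohesin and condensin when reads were divided by all exons. For Smc6 this did not hold per length of the coding transcript, as given below. Smc5, on chromosome 19 from 23206451 to 23273897, was at 19.8, 20.1 and 20.8 RPKM in WT and at 20.1, 19.9 and 19.4 RPKM in MommeD43. It varied least of the members (CV 2.33% over 6 libraries), and its log2 fold change was -0.03 (95% interval -0.15 to 0.09, limma, adjusted p = 0.999). Smc6, on chromosome 12 from 11265886 to 11319785, was at 24.8, 23.3 and 22.2 RPKM in WT and at 21.8, 24.6 and 24.4 RPKM in MommeD43. Its log2 fold change was 0.01 (95% interval -0.15 to 0.17, limma, adjusted p = 0.999). The groups of both genes overlapped.

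**Figure D1:**
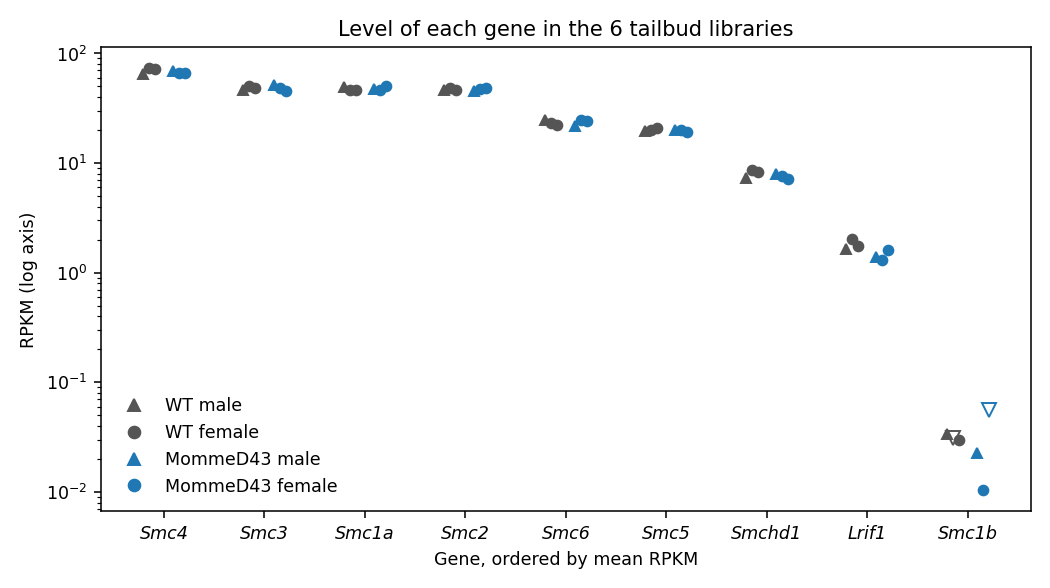
Level of each gene in each library, in RPKM on a log axis, with genes ordered by mean level, WT in grey, MommeD43 in blue, triangles for males and circles for females. Open triangles pointing down mark the level that 3 reads would make, for the 2 libraries in which Smc1b had no read. The members span from 68.4 RPKM (Smc4) to 0.0161 RPKM (Smc1b) on average, and the groups overlap for all but Lrif1.

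**Figure D2:**
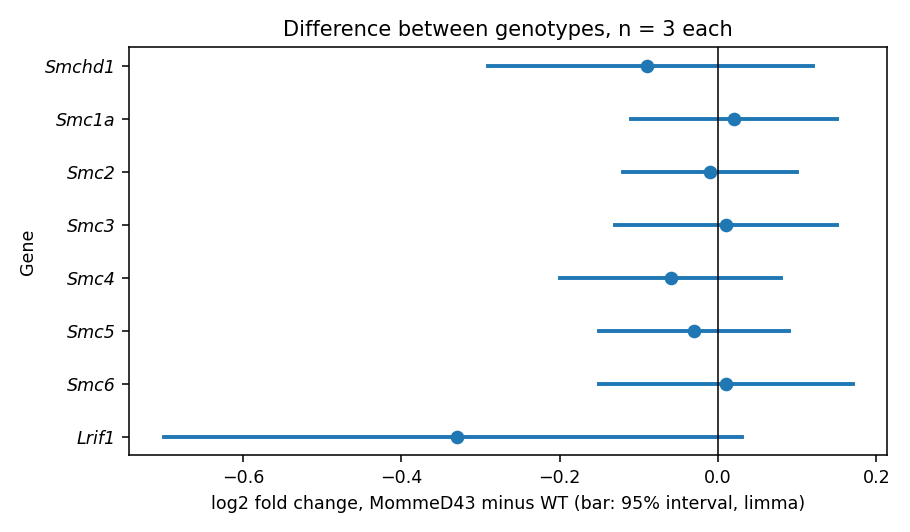
Log2 fold change, MommeD43 minus WT, of the 8 members tested (limma, n = 3 per group; points are estimates, bars 95% intervals). All 8 intervals include 0, and that of Lrif1 is the widest, from -0.70 to 0.03.

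Across all members, 0 of the 8 tested passed an adjusted p of 0.05 in either direction, and 0 reached an unadjusted p under 0.05. Over all 13617 autosomal genes, 0 passed (0%) in limma, with 327 (2.40%) at an unadjusted p under 0.05, and voom on recovered reads also called 0, with 425 at an unadjusted p under 0.05. The median log2 fold change of the members was -0.02, against 0 over all autosomal genes tested. The spread over the 6 libraries (SD of log2 level) placed Smc5 and Smc2 at the 1.3 and 1.5 percentiles of all tested genes, Smc1a at 5.7, Smc3 at 12.4, Smc4 at 16.0, Smc6 at 19.9, Smchd1 at 33.6 and Lrif1 at 70.0. The 6 canonical SMC genes tested were thus all in the steadiest 20% of genes, and by level they lay between the 80.9 and 95.8 percentiles. How far their high read number sets this rank was not tested.

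By mean level over the 6 libraries the order was Smc4 (68.4 RPKM), Smc3 (48.3), Smc1a (47.8), Smc2 (47.2), Smc6 (23.5), Smc5 (20.03), Smchd1 (7.82), Lrif1 (1.63) and Smc1b (0.0161). Smc3 did not differ from Smc1a beyond the spread between libraries (log2 difference 0.01 ± 0.11 (SD); higher in 4 of 6 libraries; exact sign-flip permutation, two-sided p = 0.719, adjusted p = 0.719). Smc1a did not differ from Smc2 either (log2 difference 0.02 ± 0.06; 4 of 6; exact p = 0.531, adjusted p = 0.607). Each of the other 6 neighbours kept its order in 6 of 6 libraries (exact p = 0.0312, the smallest the design allows, adjusted p = 0.0417). The order was set from the same libraries, so these p-values describe how steadily it held and are no independent test of it. Smchd1 was 4.85-fold above Lrif1 and Smc5 was 2.56-fold above Smchd1.

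The order depended on the length used. The deposited values divide by all merged exons, which for Lrif1 are 2.96 times, for Smchd1 2.83 times and for Smc6 2.23 times the longest coding transcript. Dividing by the coding transcript put Smchd1 at 22.2 RPKM beside Smc5 at 23.9 RPKM, which was higher in 5 of 6 libraries (exact p = 0.0625, adjusted p = 0.0833). Smc6 then stood at 52.5 RPKM, above Smc2 (47.8 RPKM) in 6 of 6 libraries (exact p = 0.0312, adjusted p = 0.0499), and Lrif1 stood at 4.82 RPKM. Smc4 stayed first at 82.6 RPKM, while Smc1a (58.8 RPKM) and Smc3 (55.2 RPKM) were not separable (exact p = 0.125), nor were Smc3 and Smc6 (exact p = 0.219). This order was also set from the same libraries, so these p-values describe how steadily it held and are no independent test. Fold changes between the genotypes do not depend on the length used.

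**Figure D3:**
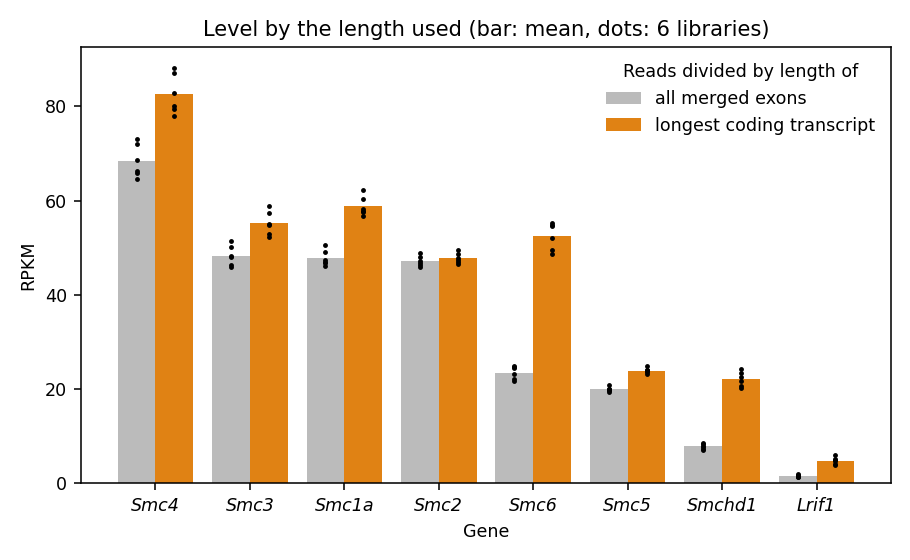
Mean level in RPKM of the 8 members with a level above that of Smc1b, with reads divided by the merged exons (grey) or by the longest coding transcript (orange), and the 6 libraries as dots. Smchd1 moves from 7.82 to 22.2 RPKM and Smc6 from 23.5 to 52.5 RPKM, while Smc2 hardly moves (47.2 to 47.8 RPKM).

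Ratios of partner genes within a library need no scaling between libraries. Smc1a and Smc3 stood near parity, at 0.992 ± 0.0758 (SD, n = 6), while the ratio of Smc4 to Smc2 was 1.45 ± 0.0683 and that of Smc6 to Smc5 was 1.18 ± 0.0851. Per coding transcript these means were 1.07, 1.73 and 2.2. The ratio of Lrif1 to Smchd1 was 0.225, 0.236 and 0.213 in WT and 0.175, 0.170 and 0.228 in MommeD43. Of these, 2 of the 3 mutant libraries fell below all WT libraries and the third lay within their range. The mean log2 difference of this ratio was -0.25 (exact permutation, two-sided p = 0.3, adjusted p = 0.8 over 4 ratios). The other 3 ratios gave log2 differences of 0.01 (Smc1a to Smc3, exact p = 1), -0.05 (Smc4 to Smc2, exact p = 0.5) and 0.04 (Smc6 to Smc5, exact p = 0.6). With 3 against 3 libraries the smallest p possible is 0.1, so this test could not pass 0.05.

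**Figure D4:**
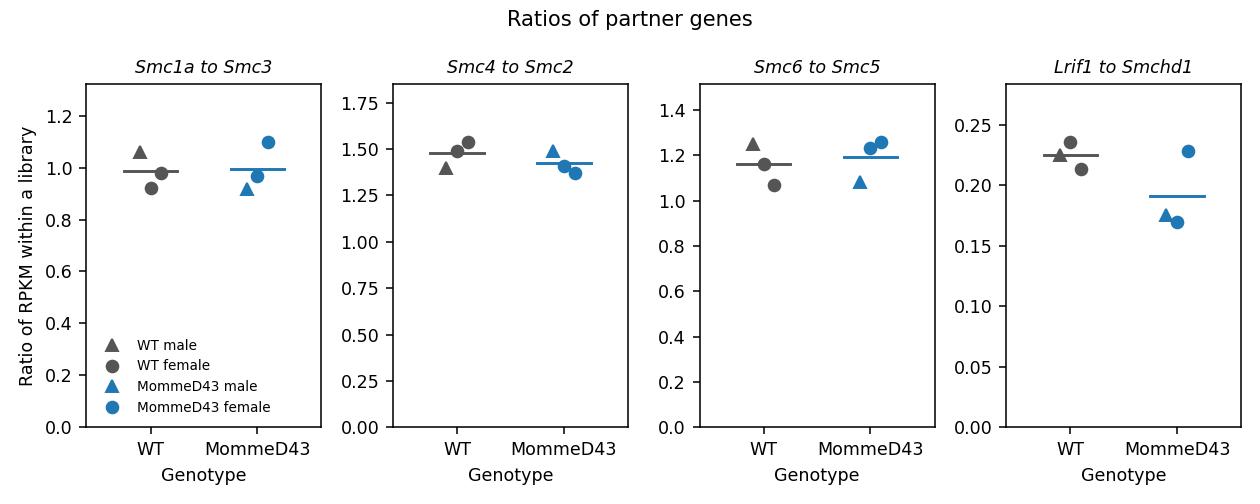
Ratio of RPKM levels of partner genes within each library (merged exons), by genotype, with triangles for males, circles for females and lines for group means. Smc1a to Smc3 lies between 0.919 and 1.10 in all 6 libraries, and the ratio of Lrif1 to Smchd1 lies between 0.170 and 0.236.

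Because each genotype had 1 male, the genotype difference was also compared between the male pair and the females. Smchd1, Smc3 and Smc4 were higher in the mutant of the male pair (log2 differences 0.12, 0.16 and 0.09) and lower in the mutant females (-0.19, -0.06 and -0.13). Smc6 showed the opposite, at -0.19 between the males and 0.11 among the females, an interaction of 0.29 ± 0.11 (SE, limma, unadjusted p = 0.0326, adjusted p = 0.413). That of Smchd1 was -0.31 ± 0.15 (SE, limma, adjusted p = 0.498). None of the 8 members passed an adjusted p of 0.05, against 0.248% of all genes tested, and 1 of 8 had an unadjusted p under 0.05, against 11.0% of all genes. Each value for males rests on a single pair of embryos from 1 mother, whereas the 4 females had 4 other mothers, so sex and mother cannot be told apart in these differences.

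The other subunits of the 3 complexes were taken from lists by name, 19 genes of which 17 were tested. None passed the test in either direction and none reached an unadjusted p under 0.05. In cohesin, the kleisin Rad21, which closes the ring, was the highest at 92.1 RPKM with a log2 fold change of 0.01. The lowest tested was Rec8, its meiotic form, at 0.47 RPKM with a log2 fold change of 0.33 ± 0.25 (SE). Stag2 (-0.09) had the smallest p of the cohesin list (limma, unadjusted p = 0.199). In condensin I, Ncapd2 had the highest level (37.4 RPKM) and Ncapg the lowest (21.9 RPKM), and the log2 fold changes with the smallest p were those of Ncaph (0.05) and Ncapg (-0.04). In condensin II, Ncaph2 stood at 52.4 RPKM and Ncapg2 at 7.61 RPKM, and the log2 fold changes with the smallest p were those of Ncapd3 (-0.08) and Ncapg2 (-0.04). All 6 condensin genes lay between -0.08 and 0.05 in log2 fold change.

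In the SMC5/6 list, 3 of the 6 tested genes had all mutant libraries above all WT libraries, against 3.53% of all autosomal genes tested. They were Nsmce1, a RING-type subunit (26.9 ± 0.511 RPKM in WT and 29.0 ± 1.0 RPKM in MommeD43), Nsmce3, its partner (4.93 ± 0.178 and 5.42 ± 0.308 RPKM), and the kleisin Nsmce4a (23.6 ± 0.578 and 24.9 ± 0.997 RPKM; all SD, n = 3). Their log2 fold changes were 0.11, 0.14 and 0.08 with limma adjusted p = 0.999 each. The other 3 (Nsmce2, Slf1 and Slf2) had log2 fold changes of -0.02, -0.14 and -0.07, so the list had no common direction and its median was 0.03. The pattern was picked out after the values were seen, as was the location of Nsmce1, Nsmce3 and Nsmce4a on chromosome 7. Of the other genes listed in this report, Mki67 and Plk1 also lie there. Their groups overlapped, with log2 fold changes of -0.1 and -0.05. A part of the location was not tested.

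Other genes with a known link to SMC ATPases or to SMCHD1 gave the same count. None of 3 genes of the Rad50 complex, 3 HP1 genes, 3 MORC genes (GHKL ATPases, like SMCHD1) and 5 genes of SMCHD1 recruitment passed the test. Of the Rad50 complex, which senses DNA breaks, Nbn had the highest level (19.4 RPKM, log2 fold change 0.11) and Rad50 the lowest (11.7 RPKM, log2 fold change -0.04). Of the MORC genes, Morc2a had the highest level (21.7 RPKM, log2 fold change -0.03) and the X-linked Morc4 the lowest (9.95 RPKM, log2 fold change -0.05). The HP1 gene Cbx5 had a mean level of 88.9 ± 12.7 RPKM in the control group against 81.2 ± 4.82 RPKM in the mutant group (SD, n = 3), a log2 fold change of -0.12. Cbx1 (69.4 RPKM) and Cbx3, the lowest of the HP1 genes (18.6 RPKM), each had a log2 fold change of 0.02. Hnrnpk, which brings the Polycomb complex with Pcgf3 and Pcgf5 to the inactive X chromosome, had the highest level of all listed genes, at 181.0 RPKM, with a log2 fold change of -0.02. The lowest of the recruitment genes was Pcgf5 (2.33 RPKM, log2 fold change -0.03), and Pcgf3 was at 9.53 RPKM (log2 fold change -0.04). Of these 14 genes 1, Ring1, had groups without overlap, a share near the 7.08% of all autosomal genes (4.59 ± 0.210 RPKM in WT and 4.17 ± 0.125 RPKM in MommeD43; SD, n = 3; log2 fold change -0.14, limma adjusted p = 0.999).

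Beside the condensin and cohesin genes, 17 proliferation genes were described. Their summed level was 1284 to 1310 RPKM in WT and 1279 to 1321 RPKM in MommeD43. None passed. Pcna, the sliding clamp of replication, was the highest (150.0 RPKM, log2 fold change 0.05) and Tyms the lowest (19.5 RPKM, log2 fold change 0.02), while Mki67 was at 47.1 RPKM (log2 fold change -0.10). Of the 17 genes 1, Ccnb1 (cyclin B1), had groups without overlap, again near the 7.08% of all autosomal genes (50.5 ± 1.78 and 46.8 ± 0.959 RPKM; SD, n = 3; log2 fold change -0.11, limma adjusted p = 0.999).

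**Figure D5:**
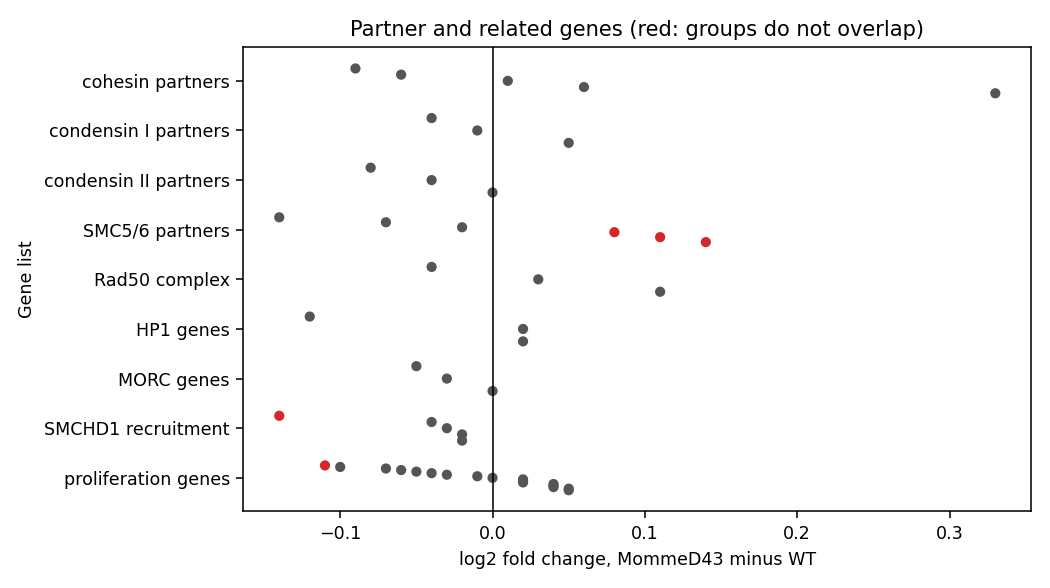
Log2 fold change, MommeD43 minus WT, of the 48 tested genes in 9 lists (1 point per gene). Red points are the 5 genes whose groups do not overlap, against 7.08% of all autosomal genes tested, and none of the 48 passed the test. All points lie between -0.14 and 0.14 except Rec8 at 0.33.

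The genes whose log2 level correlated most with that of Smchd1 over the 6 libraries were Fcgrt (Pearson r = 0.995), Cdkal1 (0.994) and Nav3 (0.993), the highest of 14134 tested genes. For Lrif1 they were Clip1 (0.990), Fkbp15 (0.985) and Map1b (0.985). A high r does not mean a like level or spread. Fcgrt had a mean of 0.602 RPKM and a log2 SD of 0.97, against 7.82 RPKM and 0.103 for Smchd1. Over only 6 libraries, 274 of the 14134 tested genes had r over 0.9 with Smchd1 and 70 with Lrif1. Whether the depth or tissue makeup of each embryo set these values was not tested. The correlations are given as a description.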

How the data were processed

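Per the study's methods and the labels, poly(A) RNA was made into stranded TruSeq libraries from 100 ng of total RNA. Reads were trimmed with Trim Galore 0.4.4 and mapped with HISAT2 2.0.5 to GRCm38.p6, and SeqMonk then gave log2 RPKM. The deposited table thus holds log2 RPKM, which the authors scaled by library size and length. Rows were matched to GENCODE M21 by identifier (35555 of 35591), and the length proved to be that of merged exons. Library totals came from genes without a read, listed at 0.9 read. Of 41935 values of 1 to 100 reads, 98.6% were whole within 0.02.

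Genes were kept with at least 15 reads and, in 3 libraries, the depth-scaled level of 10 reads in a library of median size. They were tested on log2 RPKM with limma 3.58.1 (R 4.3.3), a mean-variance trend and Benjamini-Hochberg adjustment, two-sided: 13617 autosomal genes by genotype, and 14133 genes with sex for Smc1a. On simulated data, with 200 of 13617 genes changed 2-fold, 93% were recovered with 3 false calls. The simulation gave every gene the same spread and no shared difference in tissue makeup between embryos. It therefore does not give the share recovered in the real libraries, and changes smaller than 2-fold were not simulated. Ratios and level order were tested exactly by permutation. Exact intervals cover counting error only, with 3 reads as floor. Promoter windows came from RefSeq, and the changed codon from the variant table of the study laid on the GENCODE transcript. Remaining steps used scipy 1.17.1, pandas 2.3.3 and numpy 2.4.6 in Python 3.11.15, and figures matplotlib 3.10.9.

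The members, lists and tests were chosen with earlier results of these data known. Named were all members and, per list, the 2 genes of smallest p and those of highest and lowest level, with exceptions said to be chosen after their values were seen. Alternatives were other scaling, pseudocounts, filters, covariates, the replicate block, females alone, voom on recovered reads, no trend and each library left out. Added after seeing the data were coding transcript length, Smc1a without sex, and alternatives for the interaction.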

Additional observations from a re-analysis of the deposited data

How the results depend on the processing

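No member passed an adjusted p of 0.05 under any alternative run. Lrif1 remained lower in MommeD43 under all 16 alternatives, with log2 fold changes from -0.42 to -0.20 and limma adjusted p no lower than 0.598. As its groups did not overlap, leaving out a library, females alone, pseudocounts and filters could not change this sign. The unadjusted limma p of Lrif1 ran from 0.0178 to 0.217. It was under 0.05 with voom (0.0178), without the trend (0.0373) and without MommeD43 replicate 3 (0.0398). With females alone, 10 autosomal genes passed, none of them a member, and the log2 fold change of Smc3 turned to -0.06. Median-ratio scaling turned the interaction of Smc2 to -0.01. Coding transcript length, added after seeing the data, moved the rank of 4 members. The causes were not tested.

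Leaving out 1 library at a time moved the log2 fold change of Smchd1 between -0.16 (without WT replicate 1) and -0.04 (without WT replicate 2 or MommeD43 replicate 3), Smc4 between -0.12 (without WT replicate 1) and -0.03 (without WT replicate 2), Smc5 between -0.05 and -0.01, Lrif1 between -0.42 and -0.25, Smc1a between -0.02 and 0.06, Smc2 between -0.02 and 0.02, Smc3 between -0.03 and 0.05 and Smc6 between -0.03 and 0.07. The sex coefficient of Smc1a ran from -0.08 to 0.04. The interaction of Smc2 ran from -0.03 to 0.04 and that of Lrif1 from -0.29 to 0.03. The log2 ratio of Lrif1 to Smchd1 differed between groups by -0.38 (without MommeD43 replicate 3) to -0.17, that of Smc1a to Smc3 by -0.06 to 0.07 and that of Smc6 to Smc5 by -0.02 to 0.11. From 0 to 2 members changed rank, when WT replicate 2 or MommeD43 replicate 1 was left out (Smc1a and Smc3 changed places). None passed the test with all libraries or with 1 left out.

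By the labels, number 1 marks embryos of the same mother and sex in both groups, while numbers 2 and 3 join females of different mothers. Deviations of same-numbered libraries correlated at -0.026 (number 1), 0.167 and -0.173 over 13617 genes, so the numbers were not taken as pairs throughout. With the replicate block 0 autosomal genes passed and 307 had an unadjusted p under 0.05, against 327 without it. Depth limits Smc1b (10 reads) and Lrif1 (140 reads in the shallowest library). No label says that the 3 embryos of a group were processed apart, so p-values measure the spread between these embryos.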
